A study of Mus musculus with 12 samples.

Results

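A set of 10 genes of retinoid metabolism were followed in mouse oviducts with and without estrogen receptor alpha (ESR1). They were chosen by symbol from the transcripts that differed over these same 12 arrays in the study's own model, and they are 10 of the 18162 genes that the arrays named with a single symbol. Cyp26a1, Lrat, Aldh1a3, Aldh1a7, Adh1, Adh7, Rarb, Dhrs3, Crabp2 and Rbp4 include a nuclear receptor and carrier proteins beside the enzymes of synthesis, storage and breakdown. Because the same arrays chose them, their differences between groups are given as a description and carry no test of their own.

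Whole oviducts came from immature female mice on a C57BL/6 background, and each array held RNA pooled from 3 to 4 mice. PMSG-treated ESR1KO mice lacked ESR1 in all tissues and received 5 IU PMSG, a gonadotropin that drives follicles to make estradiol, with collection 48 h later, and PMSG-treated WT mice received the same dose. Untreated ESR1KO and WT mice were collected at 23 days of age. Each of the 4 groups had 3 arrays. ESR1 was deleted with Cre recombinase expressed in the oocyte from Zp3cre, and mice of either genotype could carry the ZP3Cre transgene. The WT mice were ESR1flox/- siblings and so held 1 floxed and 1 deleted copy, which makes the comparison one of no functional copy against 1. The PMSG-treated mice were also 2 days older than the untreated mice, so PMSG and age cannot be told apart.

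Vitamin A travels in blood as retinol bound to RBP4, is stored in cells as esters made by LRAT, and is converted to retinaldehyde by alcohol and retinol dehydrogenases, a step that DHRS3 reverses. ALDH1A enzymes then oxidise retinaldehyde irreversibly to retinoic acid, CRABP2 carries retinoic acid to the nuclear receptors RARA, RARB and RARG, and CYP26 enzymes degrade it. Retinoic acid is known for patterning the Müllerian duct, from which the oviduct forms, and for inducing Rarb and Cyp26a1 in many tissues.

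Values are log2 expression signals, on which a step of 1 is a doubling, and a signal under 4 was taken as near background. The median signal was 5.63 on the dimmest array and 5.75 on the brightest, and between 41.5% and 42.3% of signals were under 4. Levels of different probe sets are not comparable, so each gene was compared only with itself across arrays. The 3 untreated ESR1KO columns followed the probe set names of the deposited table and the other 9 columns shared another order of rows. This limits comparisons with untreated ESR1KO to 1997 rows, those held of the study's list of selected transcripts, all of which were matched. Esr1 itself had signals of 10.11, 10.62 and 10.56 in PMSG-treated ESR1KO, against 12.62, 12.82 and 12.21 in PMSG-treated WT. It had 10.42, 12.13 and 11.05 in ESR1KO, against 12.94, 12.92 and 13.05 in WT. The genotypes did not overlap, but the second ESR1KO array lay 1.39 above the mean of the other ESR1KO arrays, on the side of WT. Whether this probe set lies in the deleted part of Esr1 is not given in the sources used here. The same array was the ESR1KO array nearest WT for 9 of the 10 genes, all but Rbp4, and the third PMSG-treated WT array lay apart from its group for Crabp2, Adh7, Lrat and Aldh1a7. Results are therefore also given without these arrays.

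In the untreated ESR1KO arrays all 7 ciliated cell markers, 6 secretory cell markers, 6 smooth muscle markers, 4 stromal markers and 4 mesothelial markers on the list had a signal of at least 4. All 3 endothelial markers did as well, with dimmer means between 4.91 and 6.82. Of the 4 leukocyte markers 3 did, and Cd3e had a mean of 2.16. Of the markers of neighbouring tissues, Adipoq, Retn and Lep of fat and Fshr and Amh of ovarian granulosa cells were under 4, whereas the granulosa markers Inha and Foxl2 had means of 8.04 and 8.48. In bulk tissue, fewer cells of a type and less RNA per cell cannot be told apart. Of the 8 markers matched in all 12 arrays, 4 were called higher and 2 lower without ESR1 after PMSG, by the rule given below. In untreated mice 2 were called higher and 3 lower without ESR1. Of all matched rows, 48.3% were called after PMSG and 18.1% in untreated mice. Markers could be matched only through the study's selected transcripts, so nothing is read from these counts. The log2 difference in the PMSG-treated pair and in the untreated pair was 2.44 and 1.54 for Muc1 of secretory cells, and it was -1.64 and -2.26 for Actg2 of smooth muscle. Among stromal markers the same differences were 1.49 and 1.12 for Pdgfra, but -2.10 and -2.44 for Lum. They were 1.39 and 1.39 for Lrrn4 of mesothelium, -1.26 and -3.24 for Pecam1 and -0.23 and -0.51 for Kdr of endothelium, and 1.50 and 0.54 for Lyz2 of leukocytes. The second ESR1KO array also stood nearer to WT for Lum, at 10.56 beside 8.84 and 9.21 in the other ESR1KO arrays, and for Pecam1, at 6.35 beside 4.32 and 4.06. The part of cell composition in the differences of the retinoid genes was not tested.

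The 10 genes split between the genotypes. Cyp26a1, Lrat, Adh7, Crabp2 and Rbp4 had lower signals without ESR1 both after PMSG and in untreated mice, whereas Aldh1a3, Aldh1a7, Rarb and Dhrs3 had higher signals in both states. Adh1 had a higher signal in untreated ESR1KO than in untreated WT, and similar signals in both genotypes after PMSG. With a call defined as a Benjamini-Hochberg adjusted p under 0.05 in limma and a difference of at least 2-fold, 4 of the 10 were called higher and 5 lower between the PMSG-treated genotypes, where 4.48% of all rows of the table were called, 2.76% higher and 1.72% lower, and 48.3% of the matched rows. Between the untreated genotypes 3 were called higher and 3 lower, where 18.1% of the matched rows were called, 9.11% higher and 9.01% lower. The genotypes did not overlap for 9 of 10 genes in either state. After PMSG this held for 19.6% of all rows and 93.1% of the matched rows, and without PMSG for 78.5% of the matched rows. The matched rows were themselves selected on these arrays, and nothing is read from these counts.

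**Figure D1:**
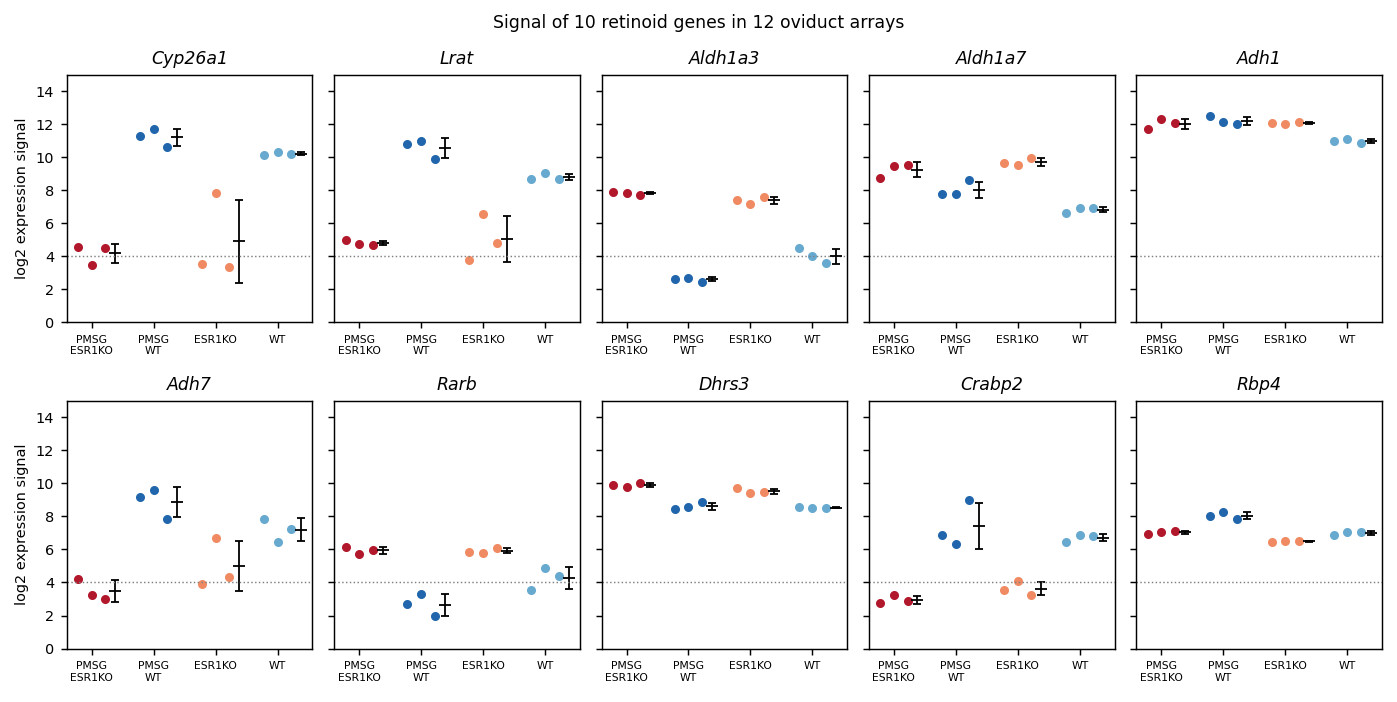
Log2 expression signal (y axis) of 10 retinoid genes on each of 12 oviduct arrays, by group, with the group mean and SD beside the 3 points and a dotted line at 4, under which a signal was taken as near background. Cyp26a1, Lrat, Adh7 and Crabp2 lie low in both ESR1KO groups, apart from the raised second ESR1KO array, and high in both WT groups, and Aldh1a3, Aldh1a7, Rarb and Dhrs3 show the opposite arrangement.

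For uptake, Rbp4 encodes the carrier that brings retinol from the blood and is also made outside the liver. Rbp4 signals were 6.92, 7.06 and 7.11 in PMSG-treated ESR1KO, against 8.04, 8.25 and 7.83 in PMSG-treated WT. In untreated mice they were 6.46, 6.49 and 6.53 in ESR1KO, against 6.88, 7.05 and 7.07 in WT. Every ESR1KO array was below every WT array of the same treatment, and the replicates lay close together. The log2 difference was -1.01 ± 0.17 (SE, n = 3 arrays each) after PMSG, which is just past 2-fold, and -0.51 ± 0.15 without it. The 3 fat markers on the arrays, of 5 listed, were near background in untreated ESR1KO, the only group in which they were named. Adjoining fat as a source of Rbp4 signal in the other groups was not tested.

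For storage, Lrat encodes lecithin retinol acyltransferase, which esterifies retinol. Its signals were 4.95, 4.75 and 4.70 in PMSG-treated ESR1KO, against 10.81, 10.96 and 9.86 in PMSG-treated WT, and the lowest WT array was far above the highest ESR1KO array. Untreated ESR1KO arrays had 3.76, 6.56 and 4.82, against 8.68, 9.02 and 8.66 in WT. The log2 difference was -5.74 ± 0.28 after PMSG, a 53.5-fold lower level, and -3.74 ± 0.56 without PMSG, a 13.4-fold lower level. Without the last PMSG-treated WT array the PMSG-treated difference was -6.09, and without the second ESR1KO array the untreated difference was -4.50. A second Lrat probe set, named in the untreated ESR1KO arrays only, had 3.04, 2.92 and 2.86 there and did not show the raised second array, but all 3 of its values were near background.

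Among the enzymes that interconvert retinol and retinaldehyde, Adh7 and Adh1 showed different patterns although they are neighbours on chromosome 3, with 0 protein-coding genes starting between them. Adh7 encodes a class IV alcohol dehydrogenase that is active on retinol. Adh7 signals were 4.21, 3.24 and 2.97 in PMSG-treated ESR1KO, against 9.20, 9.61 and 7.83 in PMSG-treated WT. In untreated mice they were 3.90, 6.70 and 4.31 in ESR1KO, against 7.85, 6.46 and 7.25 in WT. The PMSG-treated groups were wide apart, with a log2 difference of -5.41 ± 0.54, and the untreated groups overlapped through the second ESR1KO array, with -2.21 ± 0.72. Without that array the untreated difference was -3.08 and passed the call. Another Adh7 probe set, named in untreated ESR1KO only, had 5.34, 6.87 and 4.23 and was likewise highest on the second array. PMSG-treated ESR1KO signals were near background, and with signals under 4 set to 4 the PMSG-treated difference was -4.81. Without the last PMSG-treated WT array it was -5.94.

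Adh1 encodes a class I alcohol dehydrogenase that acts on ethanol and retinol. Its signals were 11.68, 12.29 and 12.05 in PMSG-treated ESR1KO, against 12.47, 12.14 and 11.99 in PMSG-treated WT. They were 12.04, 11.98 and 12.10 in ESR1KO, against 10.97, 11.12 and 10.83 in WT. The PMSG-treated genotypes overlapped, with a log2 difference of -0.19 ± 0.18, and the untreated genotypes did not, with 1.07 ± 0.17. The untreated WT arrays were thus the low ones, and the other 3 groups lay together.

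Dhrs3 encodes a short-chain dehydrogenase that turns retinaldehyde back into retinol. Dhrs3 signals were 9.90, 9.78 and 10.04 in PMSG-treated ESR1KO, against 8.44, 8.59 and 8.85 in PMSG-treated WT. In untreated mice they were 9.70, 9.40 and 9.49 in ESR1KO, against 8.58, 8.53 and 8.51 in WT. The 6 ESR1KO arrays were all above the 6 WT arrays, and the log2 difference was 1.28 ± 0.14 after PMSG and 0.99 ± 0.14 without it. The untreated value was just short of the 2-fold minimum and was not called, and it was 1.05 and called without the second ESR1KO array.

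For synthesis of retinoic acid, Aldh1a3 encodes one of the 3 classical retinaldehyde dehydrogenases. Its signals were 7.86, 7.84 and 7.73 in PMSG-treated ESR1KO, against 2.64, 2.69 and 2.46 in PMSG-treated WT. They were 7.42, 7.13 and 7.57 in ESR1KO, against 4.47, 3.99 and 3.56 in WT. All ESR1KO arrays were well above background, while PMSG-treated WT arrays were near it. The log2 difference was 5.21 ± 0.24 after PMSG and 3.37 ± 0.23 without it, or 37.1-fold and 10.3-fold higher. With signals under 4 set to 4, it was 3.81 after PMSG and 3.21 without it.

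A second row taken for Aldh1a3 was found in the 9 columns outside untreated ESR1KO by its fold alone, which makes its identity less certain. It had 11.35, 11.20 and 11.54 in PMSG-treated ESR1KO, against 6.54, 6.16 and 6.02 in PMSG-treated WT, and 8.47, 7.20 and 7.58 in WT. Both groups were above background in this row. Its log2 difference between the PMSG-treated genotypes, 5.12 ± 0.30, was fixed by the way the row was found and adds nothing to that of the first row. In untreated ESR1KO, 2 further Aldh1a3 probe sets had 11.27, 10.50 and 10.79, and 3.28, 3.40 and 3.87.

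Aldh1a7 encodes a rodent relative of the retinaldehyde dehydrogenase ALDH1A1. Aldh1a7 signals were 8.74, 9.49 and 9.51 in PMSG-treated ESR1KO, against 7.74, 7.76 and 8.59 in PMSG-treated WT. Untreated ESR1KO arrays had 9.66, 9.50 and 9.96, against 6.63, 6.94 and 6.90 in WT. The untreated genotypes were wide apart, with a log2 difference of 2.89 ± 0.27 or 7.39-fold, and the PMSG-treated genotypes nearly touched, with 1.21 ± 0.29. The PMSG-treated value was 1.49 without the last PMSG-treated WT array, and its call was lost in 10 of 16 alternatives. Aldh1a7 and Adh1 were the only members of the 10 with a larger difference in untreated mice than after PMSG.

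For delivery, Crabp2 encodes a small protein that hands retinoic acid to its receptors. Crabp2 signals were 2.78, 3.24 and 2.86 in PMSG-treated ESR1KO, against 6.90, 6.36 and 9.01 in PMSG-treated WT. They were 3.55, 4.08 and 3.27 in ESR1KO, against 6.47, 6.85 and 6.79 in WT. Both ESR1KO groups averaged under 4, and both WT groups were above it on every array. The log2 difference was -4.47 ± 0.58 after PMSG and -3.07 ± 0.54 without it. The PMSG-treated value rested in part on the third PMSG-treated WT array, and was -3.67 without it. With signals under 4 set to 4, the differences were -3.43 and -2.67.

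For the receptors, Rarb encodes retinoic acid receptor beta, whose gene is itself a classical target of retinoic acid. Its signals were 6.16, 5.72 and 5.94 in PMSG-treated ESR1KO, against 2.72, 3.29 and 1.97 in PMSG-treated WT. They were 5.85, 5.80 and 6.10 in ESR1KO, against 3.54, 4.86 and 4.42 in WT. The ESR1KO arrays were alike in both states and above every WT array. The log2 difference was 3.28 ± 0.40 after PMSG and 1.64 ± 0.37 without it, and only the first was called. PMSG-treated WT was near background, and with signals under 4 set to 4 the PMSG-treated difference was 1.94. Without the last PMSG-treated WT array it was 2.93.

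For breakdown, Cyp26a1 encodes the cytochrome P450 that clears retinoic acid, and it showed the widest separation of the 10 genes. Its signals were 4.53, 3.49 and 4.47 in PMSG-treated ESR1KO, against 11.27, 11.68 and 10.64 in PMSG-treated WT. Untreated ESR1KO arrays had 3.52, 7.81 and 3.37, against 10.15, 10.30 and 10.16 in WT. Of the 6 ESR1KO arrays only the second untreated one was clearly above background, and it lay 4.37 above the mean of the other untreated ones. The log2 difference was -7.03 ± 0.33 after PMSG, a 131-fold lower level. Without PMSG it was -5.31 ± 0.93 or 39.5-fold, and without the second ESR1KO array it was -6.76 or 108-fold. Because the ESR1KO signals were at or near background, the size of these folds is uncertain.

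**Figure D2:**
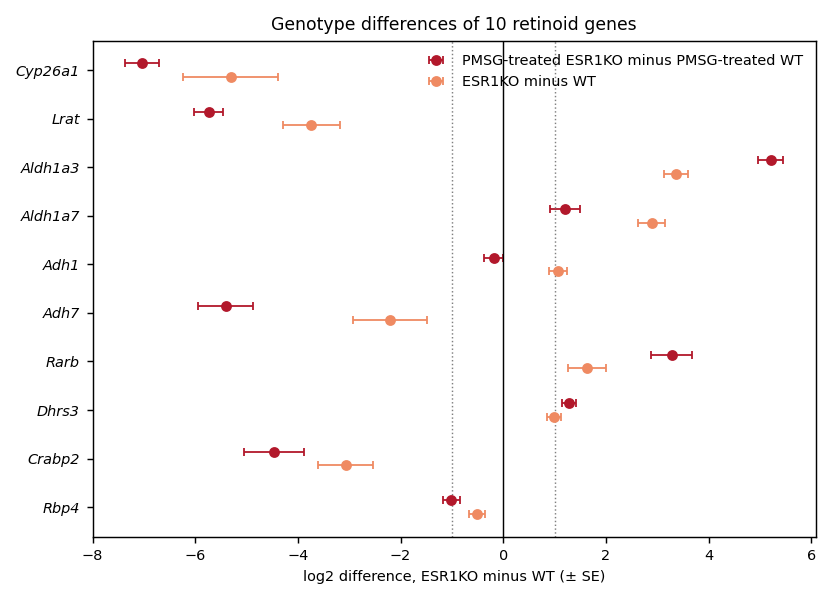
Log2 difference of each of 10 retinoid genes (x axis, ± SE, 3 arrays per group) between PMSG-treated ESR1KO and PMSG-treated WT and between untreated ESR1KO and WT, with dotted lines at a 2-fold difference. Cyp26a1 reaches -7.03 and Aldh1a3 5.21 after PMSG, and the PMSG-treated value lies farther from 0 than the untreated one for all genes but Aldh1a7 and Adh1.

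Cyp26a1 and Rarb are shown with their promoters because both are classical targets of retinoic acid and they differed between the genotypes in opposite directions. The sequences are from RefSeq (GRCm38.p6) and run from 250 bases before to 50 bases after the annotated start, with a retinoic acid response element of the DR5 type in capitals. This motif, a pair of direct repeats set 5 bases apart, was searched on both strands. Cyp26a1 lies at chr19:37697558-37697857 on the plus strand and Rarb at chr14:16575427-16575726 on the minus strand.
Cyp26a1: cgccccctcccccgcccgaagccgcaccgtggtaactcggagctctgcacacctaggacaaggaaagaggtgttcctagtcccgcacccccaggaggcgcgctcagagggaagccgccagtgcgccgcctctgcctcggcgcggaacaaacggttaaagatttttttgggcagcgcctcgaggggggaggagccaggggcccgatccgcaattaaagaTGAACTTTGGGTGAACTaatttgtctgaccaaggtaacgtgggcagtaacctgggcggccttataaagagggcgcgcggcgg
Rarb: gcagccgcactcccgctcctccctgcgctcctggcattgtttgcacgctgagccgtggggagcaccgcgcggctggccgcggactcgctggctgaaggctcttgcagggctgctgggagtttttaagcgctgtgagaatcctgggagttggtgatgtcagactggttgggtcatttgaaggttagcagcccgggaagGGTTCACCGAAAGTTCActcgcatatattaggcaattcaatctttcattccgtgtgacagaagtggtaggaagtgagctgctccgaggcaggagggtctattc
The match in Cyp26a1 began 32 bases before the start and ran in reverse, as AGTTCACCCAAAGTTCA on the other strand. The match in Rarb, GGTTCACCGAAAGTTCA, began 53 bases before the start and ran forward. Only 32 of 32851 RefSeq mouse promoters of this length, or 0.0974%, held such a match, and these were the only 2 among the 8 members of the list with a promoter entry. Aldh1a3 and Crabp2 had no entry. The full estrogen response element GGTCANNNTGACC was in 0.07% of promoters and in 0 of the 8 members, and the DR2 type of retinoic acid response element was in 0.268% and in 0 of the 8. The single site GGTCA was found on either strand in 40.5% of promoters and in Lrat, Rarb, Aldh1a7, Cyp26a1 and Rbp4. None of its matches overlapped the DR5 matches. These percentages count promoters, whereas the 8 members held 11 promoters and were counted as genes with any match, so the units are unlike. A match describes letters in this window and not a bound site.

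How much single arrays carried the untreated comparison differed by gene. The second ESR1KO array lay 4.37 above the mean of the other ESR1KO arrays for Cyp26a1, 2.59 for Adh7, 2.27 for Lrat and 0.67 for Crabp2, the genes low in ESR1KO. For the genes high in ESR1KO the same array lay below that mean by smaller amounts, with a difference of -0.36 for Aldh1a3, -0.31 for Aldh1a7, -0.19 for Dhrs3, -0.17 for Rarb and -0.09 for Adh1. Without this array 8 of 10 genes were called in ESR1KO versus WT, beside 16.6% of the matched rows. The number called was 3 without the first or without the last ESR1KO array, beside 8.76% and 8.31% of the matched rows. It was 2 without the second WT array and 3 without the last one, beside 5.06% and 7.36%. Over all arrays left out in turn, the difference kept its sign for all 10 genes and ranged from -6.76 to -4.54 for Cyp26a1, from -4.50 to -3.10 for Lrat, from -3.08 to -1.68 for Adh7 and from 3.14 to 3.60 for Aldh1a3.

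**Figure D3:**
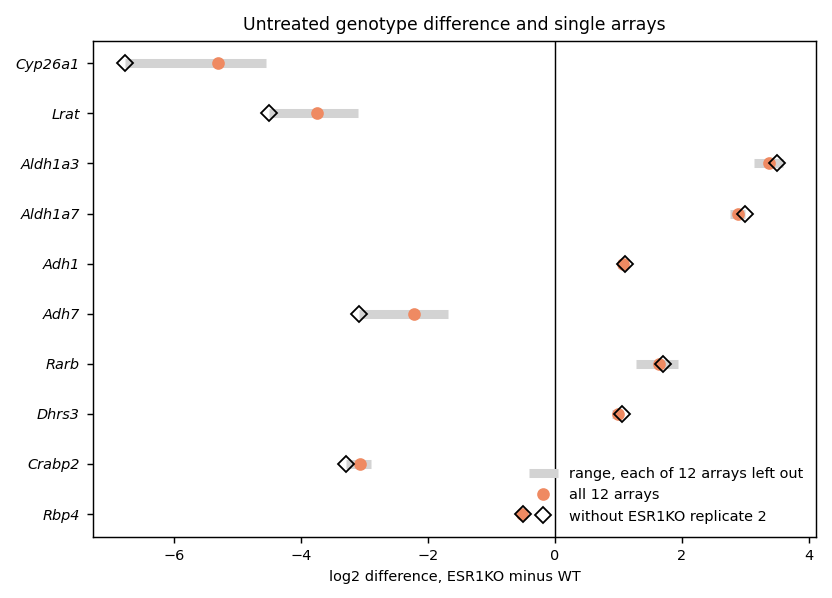
Log2 difference of untreated ESR1KO minus WT for 10 retinoid genes (x axis) with all 12 arrays, without the second ESR1KO array, and over the range when each array was left out in turn. Cyp26a1, Lrat and Adh7 move most, to -6.76, -4.50 and -3.08 without that array, and no gene crosses 0.

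The response to PMSG was then compared within each genotype. In PMSG-treated WT versus WT the log2 difference was positive for 8 of 10 genes and negative for Aldh1a3 and Rarb, with a median of 1.02 beside -0.03 over the matched rows. Adh1 alone was called, at 1.23 ± 0.18, where 0.251% of all rows were called, 0.177% as higher, and 3.81% of the matched rows. This call was lost in 13 of 16 alternatives, with an adjusted p between 0.0163 and 0.178 in limma. The values were 0.99 ± 0.33 for Cyp26a1, 1.76 ± 0.28 for Lrat, 1.70 ± 0.54 for Adh7, 1.21 ± 0.29 for Aldh1a7 and 1.04 ± 0.17 for Rbp4. They were -1.41 ± 0.24 for Aldh1a3 and -1.61 ± 0.40 for Rarb, both of which averaged under 4 in PMSG-treated WT. With signals under 4 set to 4, these became -0.16 for Aldh1a3 and -0.43 for Rarb. The less certain second Aldh1a3 row, above background in both groups, had an uncalled -1.51 ± 0.30. Dhrs3, at 0.09 ± 0.14, and Crabp2, at 0.72 ± 0.58, had overlapping groups, as did Adh7. The groups did not overlap for 7 of 10 genes, which held for 13.5% of all rows and 53% of the matched rows. Without the third PMSG-treated WT array 3 of 10 genes were called, among them Lrat at 2.10 and Rbp4 at 1.15. The share of the matched rows called rose as well, to 8.26%. The Crabp2 value without that array was -0.07.

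In PMSG-treated ESR1KO versus ESR1KO 0 of the 10 genes were called by limma, beside 0.1% of the matched rows. At an unadjusted p under 0.05 there were 2, beside 17.4% of the matched rows, and the unmoderated model also called 0. Values lay between -1.50 ± 0.72 for Adh7 and 0.54 ± 0.15 for Rbp4, with a median of -0.14 beside 0.00 over the matched rows, and the groups did not overlap for 4 of 10 genes, beside 21.5% of the matched rows. Cyp26a1 had -0.74 ± 0.93 and Lrat -0.25 ± 0.56, and without the second ESR1KO array these became 0.72 and 0.51. The Adh7 value became -0.63 without that array, and -0.93 with signals under 4 set to 4. Rarb had 0.02 ± 0.37, Adh1 -0.03 ± 0.17 and Aldh1a3 0.44 ± 0.23.

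The difference between these responses, the genotype by PMSG interaction, was called for 0 of 10 genes at an adjusted p under 0.05 in limma, beside 0.651% of the matched rows. It had an unadjusted p under 0.05 for 7 of 10, beside 36.3% of the matched rows, which the study chose with a model that held this term, and the unmoderated model called 0. The response to PMSG in ESR1KO is thus not shown to differ from that in WT for any of these genes. The interaction was -3.19 ± 1.02 for Adh7, 1.85 ± 0.33 for Aldh1a3, -1.67 ± 0.39 for Aldh1a7, 1.63 ± 0.52 for Rarb and -1.26 ± 0.24 for Adh1. With signals under 4 set to 4, it was 0.60 for Aldh1a3, 0.45 for Rarb and -2.63 for Adh7, and unchanged for Aldh1a7 and Adh1. Without the second ESR1KO array the interaction was -2.33 for Adh7. For Cyp26a1 it was -1.73 ± 1.32, and -0.27 without the second ESR1KO array, and for Lrat it lay between -2.65 and -1.24 with single arrays left out.

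**Figure D4:**
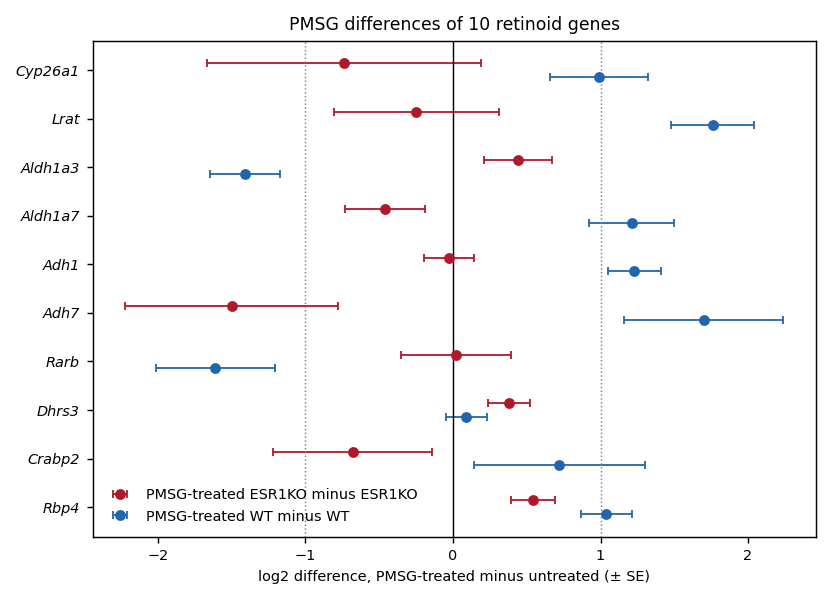
Log2 difference of PMSG-treated minus untreated oviducts (x axis, ± SE, 3 arrays per group) for 10 retinoid genes in ESR1KO and in WT, with dotted lines at a 2-fold difference. WT values lie at or beyond 0.99 in size for 8 genes, all but Dhrs3 and Crabp2. With signals under 4 set to 4, which is not drawn, the WT values were -0.16 for Aldh1a3 and -0.43 for Rarb. ESR1KO values lie within 0.74 of 0 for all genes but Adh7, which had -0.63 without the second ESR1KO array, also not drawn.

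Of a list of 58 retinoid genes by role, 7 others could be matched in all 12 arrays. Between the PMSG-treated genotypes 2 of them were called higher and 2 lower, beside 48.3% of the matched rows and 4.48% of all rows. Between the untreated genotypes 1, Fabp5, was called lower, beside 18.1% of the matched rows. In response to PMSG 1 was called higher in WT, again Fabp5, beside 3.81% of the matched rows. In ESR1KO 0 were called by limma, beside 0.1%, and 1 had an unadjusted p under 0.05, beside 17.4%. These 7 genes too were found through the study's selected transcripts, and nothing is read from the counts.

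Fabp5, a binding protein that can carry retinoic acid to PPARD, had 10.01, 9.36 and 9.85 in PMSG-treated ESR1KO, against 12.44, 12.61 and 12.32 in PMSG-treated WT. It had 9.77, 10.24 and 9.53 in ESR1KO, against 11.06, 11.05 and 11.37 in WT. Like Crabp2 it was lower without ESR1 in both states, with log2 differences of -2.72 ± 0.18 and -1.32 ± 0.21, and unlike Crabp2 it was far above background in every group. Its PMSG-treated WT versus WT difference was 1.30 ± 0.18.

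Nrip1, a nuclear receptor corepressor induced by both estrogen and retinoic acid, had 9.34, 9.40 and 9.34 in PMSG-treated ESR1KO, against 11.01, 11.39 and 11.48 in PMSG-treated WT. Its log2 difference was -1.93 ± 0.14 there and an uncalled -0.90 ± 0.21 in untreated mice. Nr2f2, an orphan nuclear receptor that retinoic acid can induce, and Rarres2, which encodes chemerin, were higher in PMSG-treated ESR1KO, by 1.15 ± 0.14 and 1.05 ± 0.10. In untreated mice the Nr2f2 groups overlapped, at 0.08 ± 0.13, and Rarres2 had an uncalled 0.70 ± 0.12. Aldh1a2, the retinaldehyde dehydrogenase of many embryonic tissues, was not called in either state and had 0.37 ± 0.22 after PMSG and 0.82 ± 0.21 without it. Rbp7, at -1.22 ± 0.41 and -1.72 ± 0.37, and Lpl, at 0.96 ± 0.23 and 0.81 ± 0.22, were not called either, and Rbp7 averaged under 4 in all 4 groups.

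**Figure D5:**
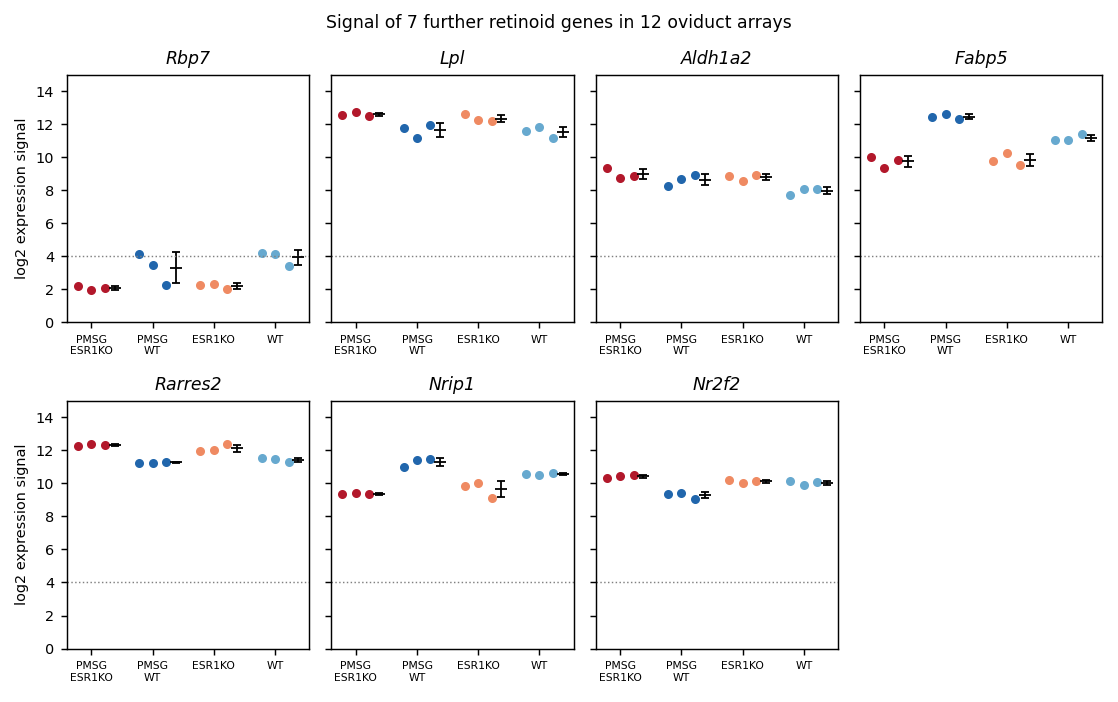
Log2 expression signal (y axis) of 7 further retinoid genes on each of 12 oviduct arrays, by group, with the group mean and SD beside the 3 points and a dotted line at 4. Fabp5 and Nrip1 lie lower and Nr2f2 and Rarres2 higher without ESR1 after PMSG, and Rbp7 lies near background.

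For the other 41 genes of the list only the untreated ESR1KO arrays could be read. Of the 38 with a probe set there, 20 had one with a mean of at least 4 and 18 had none. Aldh1a1, which encodes another classical retinaldehyde dehydrogenase, had 12.58, 12.37 and 12.55, and Rdh10, the main retinol dehydrogenase of the embryo, had 10.36, 10.75 and 10.73 on its brighter probe set. The retinol receptor gene Stra6 had 5.99, 5.60 and 6.01, and Rara, Rarg, Rxra and Rxrb each had a probe set above 4. The steps of uptake, oxidation and reception therefore each had a gene with signal in oviducts without ESR1. Of the genes of breakdown enzymes other than Cyp26a1, only Cyp26b1 had a probe set. Its signals were 4.46, 3.69 and 3.63, with a mean of 3.93, just under 4.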

How the data were processed

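RNA from whole oviducts was hybridized to 12 Affymetrix arrays, 3 per group. The deposited values are log2 expression signals that the authors made in Partek 6.6 with GC-RMA, which corrects background, normalizes quantiles and summarises each probe set. GC-RMA draws weak signals together, which makes the size of a fold uncertain where a group is near background.

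The table held 45101 rows. Only the columns of untreated ESR1KO are in the order of the probe sets and the other 9 share a different one, so rows were joined through the study's list of selected transcripts, whose fold changes and p-values served only as a key. Each of the 1997 rows held of that list found a match within 8.76e-05 in log2 units, and 1821 of 1827 symbols not used in the match were equal. The paper describes a longer list, and the part not held here is absent from the matched rows. For 30 rows a second candidate existed and the closest was taken. Each of the 10 genes had 1 candidate.

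The comparison of the PMSG-treated genotypes and that of PMSG-treated WT with WT used limma 3.58.1 (lmFit, then eBayes with trended variance, R 4.3.3) over all 45101 rows of the 9 columns. The other comparisons used the 1997 rows on 12 arrays, took the prior variance from the first fit (2.87 prior degrees of freedom) and applied Benjamini-Hochberg adjustment as for 45101 tests, an upper bound. This departs from 1 fit over 12 arrays. SE in the text is the standard error from the model. The code was tested on simulated data. The study states that replicates used different mice, and p-values measure the spread between these pools. The genes and lists were chosen with earlier results of these data known, and every one of the 10 was named.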

Additional observations from a re-analysis of the deposited data

How the results depend on the processing

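The number of the 10 genes called in ESR1KO versus WT was 6, beside 18.1% of the matched rows. It was 2 with an unmoderated model, beside 6.96%, and 2 to 8 with each array left out in turn, beside 5.06% to 25.2%. In PMSG-treated WT versus WT it was 1, beside 3.81%. There it was 0 with an unmoderated model (0.701%) and with signals under 4 set to 4 (1.85%). It was also 0 with replicate number as a replicate block (1.6%) and with only the 6 arrays compared (1.15%). It was 4 with rows of a mean signal of at least 4, beside 5.83% of such matched rows. With single arrays left out it was 0 to 3, beside 1.25% to 8.26%. Between the PMSG-treated genotypes it was 9, beside 48.3%, and 7 to 9 with single arrays left out, beside 34% to 47.4%. The cause of these changes was not tested. In ESR1KO versus WT the call was lost in 8 of 19 alternatives for Cyp26a1 and for Crabp2, in 6 for Adh1 and in 4 for Lrat. Between the PMSG-treated genotypes it was lost in 10 of 16 for Aldh1a7 and 2 for Rbp4, and in PMSG-treated WT versus WT in 13 of 16 for Adh1.

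No difference between the genotypes changed sign under the alternatives run. In PMSG-treated ESR1KO versus ESR1KO the Adh1 value was 0.00 with quantile normalization repeated, and with single arrays left out the values ranged from -0.17 to 0.14 for Adh1, from -1.50 to 0.72 for Cyp26a1, from -0.89 to 0.51 for Lrat and from -0.09 to 0.13 for Rarb. In PMSG-treated WT versus WT they ranged from -0.07 to 1.25 for Crabp2 and from -0.03 to 0.18 for Dhrs3. Same-numbered arrays correlated from -0.114 to 0.265 in 18 pairs over the matched rows, 6 of them over 0.1, and from -0.124 to 0.356 over all rows of the 9 columns. Since not every pair was over 0.1, the arrays were not treated as paired, although 8 of 12 correlated best with their own number, a hint from the data. The replicate block ended the calls of Adh1 in PMSG-treated WT versus WT (adjusted p = 0.103 in limma) and of Crabp2 in ESR1KO versus WT (0.0569). The second Aldh1a3 row was tried only where untreated ESR1KO was not needed. With 3 arrays per group and signals near background on 1 side of the widest differences, the number of arrays and the dim signals limit the precision.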
